A study of Mus musculus with 19 samples.

Results

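The Nr4a orphan nuclear receptors Nr4a1, Nr4a2 and Nr4a3 were followed by name through the RNA of mouse thymocytes, as 3 of the 28692 genes measured, in every genotype, stage and cell type of a CITE-seq study of CD4 and CD8 lineage commitment. CITE-seq reads the RNA of single cells and, with DNA-tagged antibodies, their surface proteins, here with 111 antibodies. There were 17 mice aged 4 to 8 weeks, on 19 lanes. CD4-fated mice (2 each) were AND and OT-II mice, which carry transgenic T cell receptors (TCRs) restricted by MHC class II, and MHCI-/- mice, which lack B2m. CD8-fated mice (2 each) were F5 and OT-I mice, whose transgenic TCRs are restricted by MHC class I, and MHCII-/- mice, which lack H2-Ab1. AND and F5 mice were also Rag1-/-, so that no other TCR could be made. The methods call the transgenic mice without this deletion Rag sufficient, which leaves OT-I and OT-II mice, whose cells may carry an endogenous TCR as well. Wild-type mice were 5: thymocytes of replicates 1 to 3 and of the MHCI-/- and MHCII-/- mice had been sorted for CD5+TCRβ+ cells, and those of wild-type replicates 4 and 5 and of all TCR-transgenic mice were unsorted. All OT-I and OT-II mice and wild-type replicates 4 and 5 were handled in 1 experiment, at another site than the rest, so that among the lineage-restricted mice site and the OT family cannot be told apart.

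NR4A proteins (NUR77, NURR1 and NOR1 for Nr4a1, Nr4a2 and Nr4a3) are nuclear receptors without a known natural ligand, and what they do is set largely by how much of them is made. They are immediate-early genes: in T cells, TCR signaling induces them within a short time and the RNA is lost soon after it ends, which is why an Nr4a1 reporter is used to read TCR signal strength. In the thymus NUR77 and NOR1 take part in the death of cells that receive a strong TCR signal (negative selection), together with BIM, the pro-apoptotic protein encoded by Bcl2l11, and NR4A factors are needed for regulatory T cells that express Foxp3.

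The 3 genes lie on different chromosomes. In the GRCm38 annotation, all as protein-coding genes, Nr4a1 (identifier ENSMUSG00000023034) was annotated at chr15:101254269-101274795 on the plus strand, Nr4a2 (identifier ENSMUSG00000026826) was annotated at chr2:57106830-57124003 on the minus strand and Nr4a3 (identifier ENSMUSG00000028341) was annotated at chr4:48045153-48086447 on the plus strand. In wild-type mice all 3 genes had their highest mean in the same stage, as described below. The sequences upstream of their RefSeq starts are therefore shown (GRCm38.p6, 5′ to 3′ on the strand of the gene). They are in lower case, with the core of a cAMP response element in capitals, TGACG on either strand (CGTCA when read on the other). The stretch ends at the start of transcription in RefSeq or, for Nr4a3, before the first annotated exon. That of Nr4a1 lies inside the annotated gene, outside its exons, and the others lie upstream of the annotated gene.
Nr4a1 (chr15:101266596-101266845, plus strand, 250 bases): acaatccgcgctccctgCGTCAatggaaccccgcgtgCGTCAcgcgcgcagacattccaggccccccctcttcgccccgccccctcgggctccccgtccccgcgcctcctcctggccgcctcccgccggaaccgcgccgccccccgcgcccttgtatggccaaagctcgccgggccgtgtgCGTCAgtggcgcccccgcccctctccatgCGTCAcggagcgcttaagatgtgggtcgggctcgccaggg
Nr4a2 (chr2:57124004-57124253, minus strand, 250 bases): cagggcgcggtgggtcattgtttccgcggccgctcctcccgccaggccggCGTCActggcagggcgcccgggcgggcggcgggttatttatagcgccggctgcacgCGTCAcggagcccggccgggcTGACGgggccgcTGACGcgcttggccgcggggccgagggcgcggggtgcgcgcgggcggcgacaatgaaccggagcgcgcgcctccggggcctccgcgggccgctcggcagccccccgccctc
Nr4a3 (chr4:48045055-48045152, plus strand, 98 bases): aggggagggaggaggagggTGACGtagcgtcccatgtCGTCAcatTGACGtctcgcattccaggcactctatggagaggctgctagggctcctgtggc
In the whole window of 250 bases before to 50 bases after the start, each of the genes held 4 such cores, counted on both strands. At least 1 core was present in 20.8% and at least 4 in 0.232% (76) of 32817 RefSeq promoter windows of the same length. The full palindrome TGACGTCA (1.79% of windows), the NR4A monomer site AAAGGTCA (1.51%), the EGR site GCGTGGGCG (0.612%) and the AP-1 site TGANTCA (7.81%) were not matched in the windows of the 3 genes, and TATAAA (13.6%) was matched 1 time, in Nr4a2. GC content of the windows was 72.3%, 81.7% and 64.7%. These are matches of letters and were not tested for binding.

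Cells were staged by surface protein, without reading the Nr4a counts. The thresholds were set on antibody histograms and RNA stage markers, and cells with a Foxp3 UMI were kept out of the CD4 single-positive gates unless named. Immature CD4+CD8+ (double-positive) cells were CD69- (DP1) or CD69+ (DP2), CD69 being a protein that TCR signaling induces. CD4+CD8lo cells, which follow DP2 on both paths, were CD69+ with reduced CD8. DP3 cells were CD69+CD8+ and either CD4+ with late markers (TCRβ and CD127) or intermediate in CD4 with late TCRβ, whatever their CD127. They are the stage before CD8 single-positive cells. Semimature (SM, CD69+) and mature (CD69-) CD4 or CD8 single-positive cells closed the paths. After filters on quality and called doublets, 69148 cells remained, and lanes held 9893333 to 43303999 RNA UMIs (unique molecular identifiers), 1832 to 7679 cells and a median of 1519 to 7259 RNA UMIs per cell. Pairs of lanes shared a median of 5 and at most 35 of the 85389 barcodes. The lane of AND replicate 2 kept 42.1% of its barcodes, because 2419 had fewer than the minimum of 1000 antibody UMIs, and results that turn without it are given below. Levels are UMIs of a gene per 1000000 RNA UMIs (CPM), summed over the cells of a gate in a mouse. Since UMIs are counted from the 3′ end, levels of different genes were not set against each other.

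Among the stage gates of wild-type mice, from DP1 to the mature single-positive gates, all 3 genes had their highest mean in DP2 cells. Apart from Nr4a1, which was lower still in CD8 mature cells, they had their lowest mean in DP1 cells. Nr4a1 was at 24.6, 32.3 and 7.09 CPM in the sorted and 9.05 and 20.5 CPM in the unsorted wild-type mice in DP1 cells, a mean of 18.7 ± 10.6 CPM (SD, n = 5). In DP2 cells Nr4a1 was at 203, 222 and 169.6 CPM in the sorted and 130.3 and 276 CPM in the unsorted wild-type mice, 200.3 ± 54.9 CPM (SD, n = 5), and the lowest DP2 value lay above the highest DP1 value. The order that followed was CD4+CD8lo cells at 110.2 ± 19.9, CD4 SM at 103 ± 30.5, DP3 at 71.2 ± 26.3, CD8 SM at 56.8 ± 21.0, CD4 mature at 34.9 ± 16.2, DP1 and, lowest, CD8 mature at 13.4 ± 8.79 CPM (SD, n = 5 in each). Neighbors in this order overlapped in their ranges, DP2 and CD4+CD8lo included (DP2 from 130.3 and CD4+CD8lo up to 143 CPM).

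Nr4a3 had the same order of gates from DP2 to CD4 mature. Its DP1 level was 2.30 ± 1.51 CPM (SD, n = 5). In DP2 cells it was at 41.3, 52.8 and 64.3 CPM in the sorted and 33.1 and 66.8 CPM in the unsorted wild-type mice, again without overlap with DP1. CD4+CD8lo cells followed at 31.6 ± 12.8, CD4 SM at 24.0 ± 4.02, DP3 at 18.9 ± 19.6, CD8 SM at 12.4 ± 7.13, CD4 mature at 6.97 ± 2.14 and CD8 mature at 4.61 ± 3.88 CPM (SD, n = 5 in each). Neighbors overlapped here too. Nr4a2 was the sparsest. It was below 1 CPM in DP1 cells of every wild-type mouse, at 0.477 ± 0.135 CPM (SD, n = 5). It was at 11.5, 7.80 and 41.1 CPM in the sorted and 5.34 and 15.6 CPM in the unsorted wild-type mice in DP2 cells, where the highest mouse, sorted replicate 3, drew 21 of its 23 UMIs from 1 cell. After DP2, the Nr4a2 means ran from 1.78 CPM (DP3) to 5.97 CPM (CD8 SM), with mice at 0 in 4 of the 8 gates, and the gates could not be ordered beyond their spread.

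**Figure D1:**
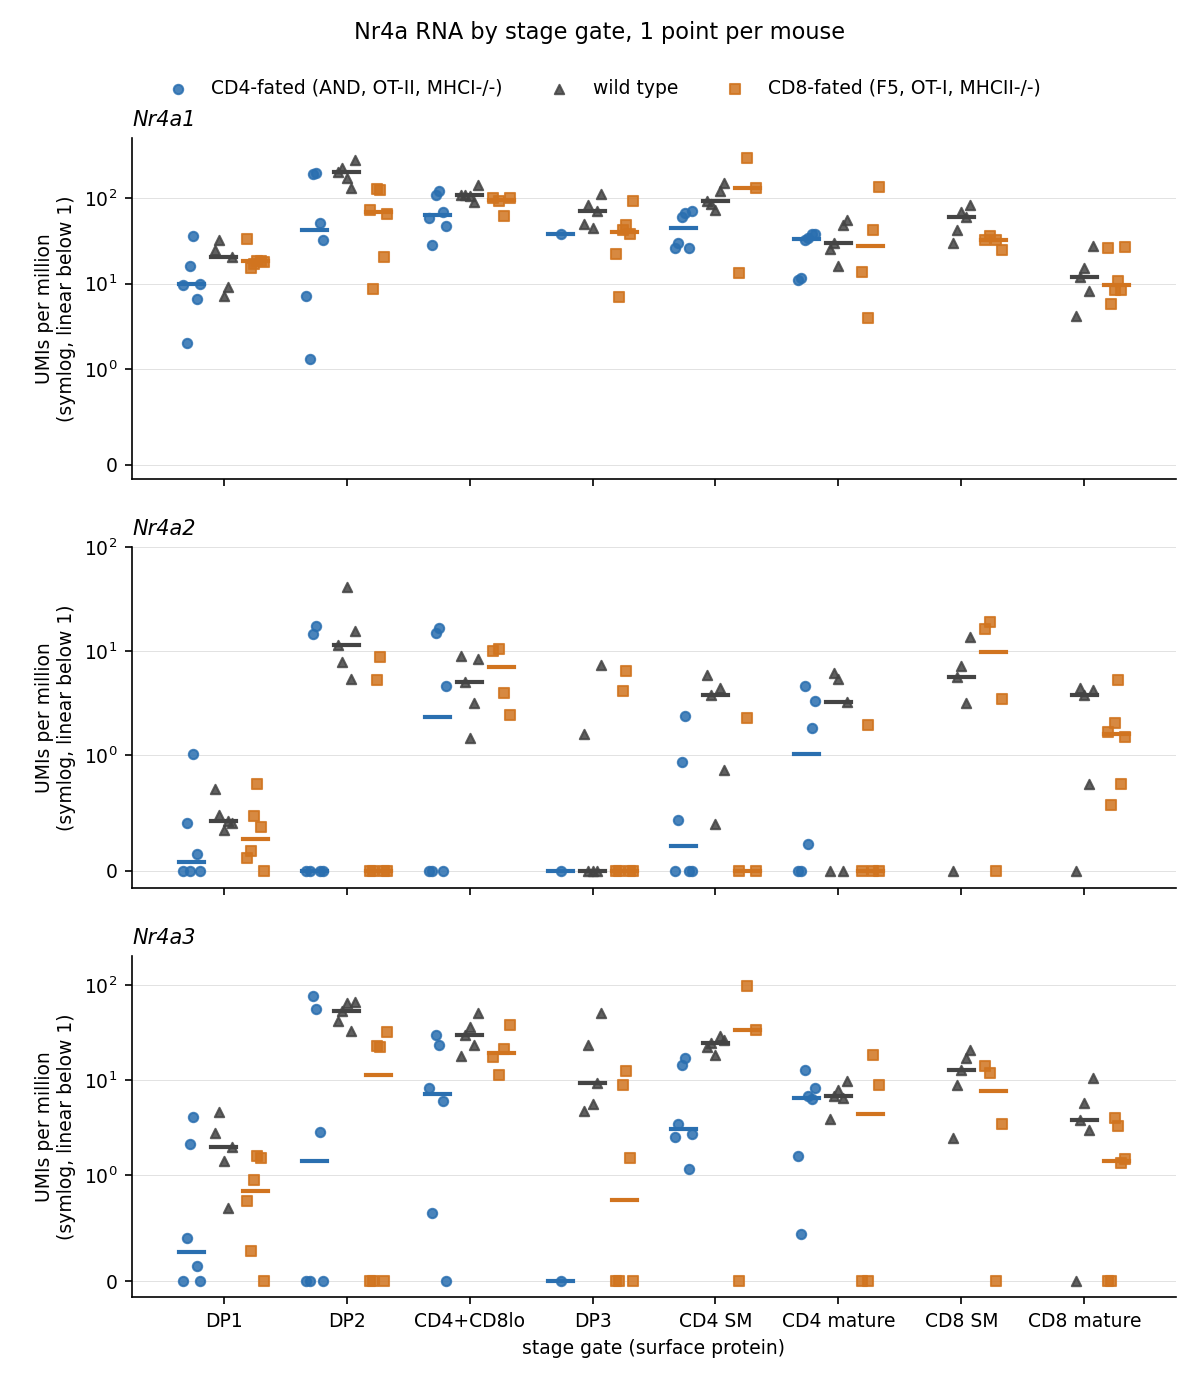
Nr4a1, Nr4a2 and Nr4a3 CPM in each stage gate (x axis), on a symmetric log axis that is linear below 1, with 1 point per mouse and a bar at the group median for gates with at least 20 cells in the mouse. Points for DP2 in wild-type mice (Nr4a1 from 130.3 to 276 CPM) sit above those for DP1, and in CD4-fated and CD8-fated mice DP2 is spread over a wider range.

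The spread between repeated lanes of 1 mouse differed between mice and gates. Wild-type replicates 4 and 5 were each loaded on 2 lanes. Those of replicate 4 gave Nr4a1 at 207 and 90.8 CPM in DP2 (82 and 189 cells), 88.6 and 88.5 CPM in CD4+CD8lo and 68.2 and 146 CPM in CD4 SM cells. Those of replicate 5 gave 274 and 279 CPM in DP2, 123 and 164 CPM in CD4+CD8lo and 130 and 170 CPM in CD4 SM cells. Single cells mostly had none of these UMIs. For shares of cells with a UMI, cells were thinned to 1500 UMIs and shallower cells were left out. Wild-type replicate 5 kept 2364 of 6211 DP1 and 129 of 279 DP2 cells. Its DP2 share for Nr4a1 was 15.1% in the thinned cells and 13.3% over all DP2 cells. Among thinned cells of wild-type mice, 2.09 ± 1.12% of DP1, 12.8 ± 3.59% of DP2 and 8.18 ± 1.21% of CD4+CD8lo cells had a UMI of Nr4a1 (SD, n = 5). Without thinning these shares had medians of 2.69%, 13.3% and 13.2%. For Nr4a3 the thinned shares were 0.371 ± 0.211%, 4.68 ± 0.810% and 3.07 ± 1.22%. No population here is known to lack these genes. The lowest was double-negative (CD4-CD8-TCRβ-) cells of the unsorted wild-type mice, in which thinned cells had a UMI of Nr4a1 in 1.09 ± 0.316% and of Nr4a3 in 0.0665 ± 0.0649% (SD, n = 2). Their median depth was 14079 and 4919 UMIs, against 3137 and 1472 UMIs in DP2 cells of the same mice.

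In the unsorted thymus most cells are DP1, but most Nr4a1 RNA was elsewhere. In wild-type replicates 4 and 5, DP1 cells were 78.4% and 71.5% of cells and held 23.0% and 26.1% of the Nr4a1 UMIs. CD4 SM cells, here with those that had a Foxp3 UMI, were 4.09% and 5.01% of cells and held 25.5% and 17.7%. DP2 cells, 2.39% and 3.21% of cells, held 8.90% and 12.9%. Cells that no gate took, 5.07% and 8.101% of cells, held 14.6% and 19.98% of all RNA UMIs. In them were 15.97% and 20.9% of the Nr4a1, 32.5% and 53.1% of the Nr4a2 and 21.9% and 29.8% of the Nr4a3 UMIs.

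The question at the first step was whether the genes were higher once double-positive cells carried CD69. All 3 rose from DP1 to DP2 over the 17 mice, each mouse compared with itself. Nr4a1 rose with a log2 fold change of 2.73 ± 0.21 (SE; edgeR quasi-likelihood test, adjusted p = 5.3e-11), and was higher in 14 of 17 mice. The exceptions were both AND mice and F5 replicate 2. Nr4a3 rose with a log2 fold change of 4.24 ± 0.25 (SE; edgeR quasi-likelihood test, adjusted p = 2.5e-12), the largest rise of any gene tested, and was higher in 11 mice, lower in 4 and at 0 on both sides in 2. Nr4a2 rose with a log2 fold change of 4.00 ± 0.34 (SE; edgeR quasi-likelihood test, adjusted p = 5.5e-10), with 9 mice higher, 5 lower and 3 at 0 on both sides. Of all genes tested, 49.1% passed the same threshold (adjusted p below 0.05). Of 30 genes known to respond to TCR signaling, 28 were tested, 27 rose and 0 fell, with a median log2 fold change of 1.44 against -0.03 over all genes. Cd69 belongs to this list and its protein set the gate. The largest were Tnfrsf9 (4-1BB, 4.21), Gadd45b (a stress and NF-κB response gene, 3.57) and Pdcd1 (PD-1, 2.29). Of 12 genes induced by tissue dissociation, 9 were tested, 5 rose (Fosb, Fos, Ier2, Junb and Zfp36) and 3 fell (Hsp90aa1, Btg2 and Dnajb1), with a median of 0.52. This list and the TCR response list share Fos, Fosb, Jun, Junb and Ier2, here and below. Summed, the dissociation genes were lower in DP2 in 13 of 17 mice. Marker genes of other states also moved with this step. Cycling genes (Mki67, Top2a and Birc5) went from a median of 1487 to 109 CPM and quiescent double-positive genes (Rag1, Rag2, Arpp21 and Aqp11) from 1486 to 224 CPM, both lower in 17 of 17 mice. Double-negative genes (Hes1, Dtx1, Il2ra and Ptcra) went from 87.5 to 26.6 CPM, lower in 17 of 17, and gamma-delta T cell genes from 175 to 35.3 CPM, lower in 14 of 17. The part of these lists in the Nr4a rise was not tested. DP2 cells were deeper than DP1 cells in 12 of 17 mice.

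The exceptions were all mice with a transgenic TCR, and the 8 TCR-transgenic mice (AND, F5, OT-I and OT-II) were therefore set against the 9 polyclonal mice (wild type, MHCI-/- and MHCII-/-), with experiment as a covariate. The polyclonal mice other than wild-type replicates 4 and 5 were also those sorted for CD5+TCRβ+ cells. This comparison was chosen after the values were seen, so its p-values describe a difference already noticed in the same data. In DP2 cells Nr4a1 was at 7.11 and 1.33 CPM in AND, 72.1 and 8.56 CPM in F5, 20.7 and 64.9 CPM in OT-I and 50.9 and 32.5 CPM in OT-II mice. It was at 189 and 196 CPM in MHCI-/- and 126 and 122 CPM in MHCII-/- mice, so that with the wild-type mice every polyclonal mouse lay above every transgenic one. Nr4a1 was lower in the transgenic mice with a log2 fold change of -2.85 ± 0.41 (SE; edgeR quasi-likelihood test, adjusted p = 0.00022), where 2.5% of genes passed. Nr4a3 was at 0 in 6 of the 8 transgenic mice and at 32.4 and 2.83 CPM in OT-I replicate 2 and OT-II replicate 1, against 22.4 to 77.0 CPM with a median of 52.8 CPM in polyclonal mice. Its log2 fold change of -4.41 ± 0.71 (SE; edgeR quasi-likelihood test, adjusted p = 0.00083) depends on how mice at 0 are fitted and is not a bound. Nr4a2 had 0 UMIs in the 605 DP2 cells of all 8 transgenic mice, which allows up to 1.13 CPM over them (a limit from counting error alone), against 5.30 to 41.1 CPM in the polyclonal mice. In wild-type replicate 3, at 41.1 CPM, 1 cell held 21 of the 23 Nr4a2 UMIs, and in OT-II replicate 1, at 50.9 CPM, 1 cell held 11 of the 18 Nr4a1 UMIs. For Nr4a3, the 32.4 CPM of OT-I replicate 2 were 4 UMIs in 1 of 41 cells, and the 2.83 CPM of OT-II replicate 1 were 1 UMI.

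Before CD69 the sides were closer. In DP1 cells Nr4a1 ran from 2.05 to 33.4 CPM with a median of 12.5 CPM in transgenic and from 7.09 to 35.7 CPM with a median of 18.2 CPM in polyclonal mice (log2 fold change -0.51 ± 0.40 SE, edgeR adjusted p = 0.63), whereas Nr4a3 was lower in the transgenic mice (log2 fold change -2.31 ± 0.58 SE, edgeR adjusted p = 0.028; 4.61% of genes passed). The change from DP1 to DP2 itself was tested as a difference of log2 changes, transgenic minus polyclonal, for which 8.32% of genes passed. It was smaller in transgenic mice for Nr4a1 (-2.06 ± 0.33 SE, edgeR adjusted p = 9.9e-05). For Nr4a2 (-7.34 ± 2.51 SE, edgeR adjusted p = 0.074) and Nr4a3 (-2.48 ± 0.97 SE, edgeR adjusted p = 0.13) that difference did not pass, and the Nr4a2 value depends on how mice at 0 are fitted. In CD4+CD8lo cells (6 transgenic mice, F5 having 4 and 3 such cells) Nr4a1 ran from 28.5 to 99.1 CPM with a median of 59.6 CPM against 88.5 to 143 CPM with a median of 107 CPM in polyclonal mice, and none of the genes passed (log2 fold change -0.95 ± 0.22 SE, edgeR adjusted p = 0.053), where 0.836% of genes did. The TCR response list moved with Nr4a1. In DP2, 16 of 25 genes tested were lower and 0 higher in transgenic mice, and the change from DP1 to DP2 was smaller for 21 of 28 and larger for 0. Surface CD5 protein overlapped in DP2, at 1460 to 2219 (median 1842) in transgenic and 1094 to 2321 (median 1909) antibody counts per 10000 in polyclonal mice. In DP1 its medians were 1467 and 1168. RNA of gamma-delta T cell markers (Trdc, Sox13 and Tcrg-C1, all 3 measured) summed in DP2 to 32.5 to 544 CPM (median 370) in transgenic and 16.8 to 42.9 CPM (median 32.4) in polyclonal mice. In DP1, where the Nr4a1 difference did not pass, the medians were 402 and 146 CPM. Other lists moved with the sides in DP1 as well. Quiescent double-positive genes summed to 326 to 2290 CPM (median 795) in transgenic and 1327 to 4027 CPM (median 1762) in polyclonal mice, CD8 single-positive genes to medians of 2219 and 3359 CPM, double-negative genes to 118 and 86.5 CPM, and erythroid genes (Hba-a1, Hbb-bs and Alas2) to 35.0 and 0 CPM, with up to 1523 and 162 CPM. In DP2 the quiescent double-positive genes had medians of 234 and 223 CPM, double-negative genes 65.0 and 13.999 CPM and erythroid genes 8.196 and 0 CPM. Cells stained for the gamma-delta TCR were 0 or 1 in each AND, F5 and OT-I mouse, 33 and 25 in OT-II mice and 2 to 13 in polyclonal mice. Transgenic mice had 34 to 138 DP2 cells, polyclonal mice 178 to 1028. The part of these in the result was not tested.

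**Figure D2:**
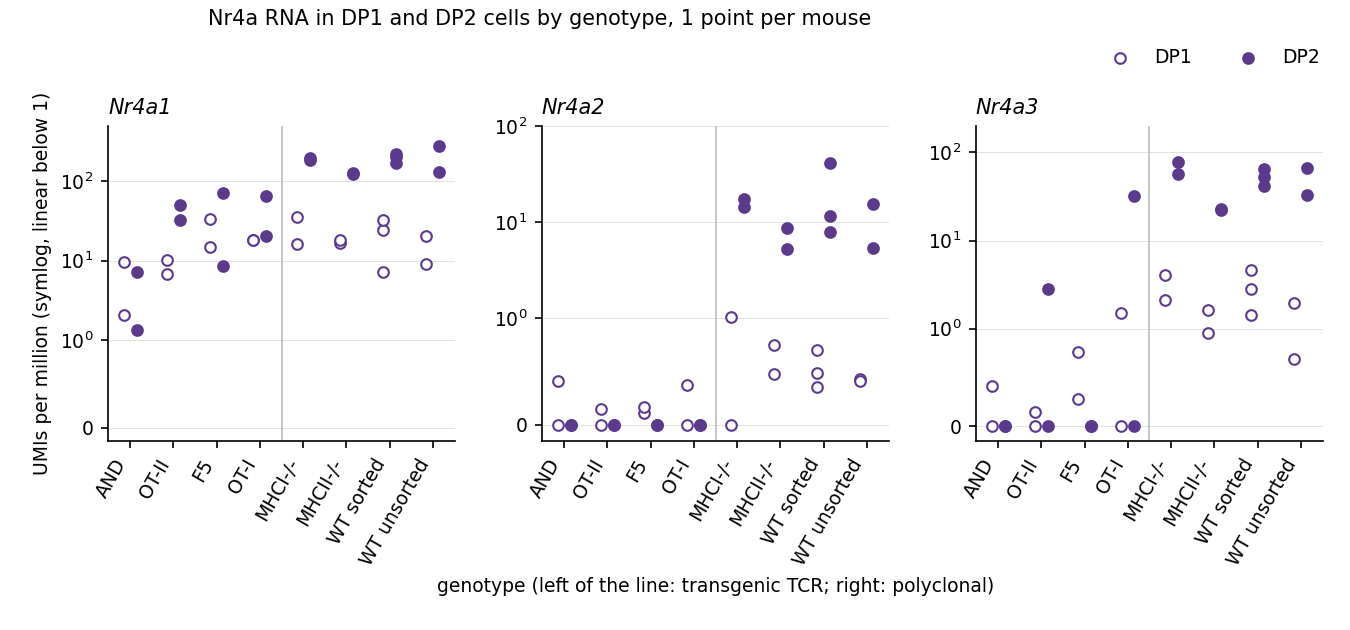
Nr4a1, Nr4a2 and Nr4a3 CPM in DP1 (open) and DP2 (filled) cells by genotype, 1 point per mouse, on a symmetric log axis that is linear below 1, with TCR-transgenic genotypes left of the vertical line and polyclonal ones right of it. Filled Nr4a1 points lie from 122 to 276 CPM on the right and from 1.33 to 72.1 CPM on the left, and filled Nr4a2 points on the left are at 0.

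From DP2 to CD4+CD8lo cells (15 mice; 19.8% of genes passed), Nr4a3 fell (log2 fold change -0.67 ± 0.16 SE, edgeR adjusted p = 0.004; lower in 9 mice, higher in 5), from 0 to 77.0 CPM (median 32.4) to 0 to 50.9 CPM (median 21.5). That call was lost with DESeq2 (-0.48, adjusted p = 0.14). The direction went with the TCR. Nr4a3 was lower in the 9 polyclonal mice, and the 5 mice in which it was higher were transgenic. Nr4a1 was lower in the 9 polyclonal mice, going from 122 to 276 CPM to 88.5 to 143 CPM. It was higher in the 6 transgenic mice, going from 1.33 to 64.9 CPM to 28.5 to 99.1 CPM. The fold changes over all 15 mice pool these directions, and the split was not tested. Consecutive steps share the cells of a gate and are not independent of each other. Nr4a1 (-0.39 ± 0.15 SE, edgeR adjusted p = 0.075) and Nr4a2 (-0.20 ± 0.28 SE, edgeR adjusted p = 0.71) did not pass, and the Nr4a1 value was 0.07 with DESeq2. Nr4a1 passed in edgeR with stricter gates (-0.79, adjusted p = 0.00015) and without AND replicate 1, AND replicate 2 or OT-I replicate 1 (adjusted p from 0.0025 over the mice left out). Of the TCR response list, 5 of 27 genes rose and 11 fell: Tnfrsf4 (OX40) rose by 1.86, Irf4 (a TCR-induced transcription factor) rose by 1.04 and Ikzf2 (HELIOS) fell (-1.17).

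On the CD4 path, the comparisons used the 6 CD4-fated mice. From CD4+CD8lo to CD4 SM cells (17.1% of genes passed) Nr4a1 fell (log2 fold change -0.62 ± 0.13 SE, edgeR adjusted p = 0.0013), from 28.5 to 119 CPM (median 63.0) to 25.7 to 71.1 CPM (median 44.4), with 4 mice lower and 2 higher. In the 5 wild-type mice the same step gave 0.05 ± 0.09 SE (edgeR adjusted p = 0.75), and DESeq2 did not pass in the CD4-fated mice (-0.56, adjusted p = 0.055). Nr4a2 fell (-2.87 ± 0.47 SE, edgeR adjusted p = 0.00012), lower in 3, higher in 1 and at 0 on both sides in 2 mice, and in wild-type mice did not pass (-0.37, edgeR adjusted p = 0.52). Nr4a3 did not pass (-0.55 ± 0.25 SE, edgeR adjusted p = 0.15) unless AND replicate 2 was left out (-0.65, edgeR adjusted p = 0.046). Of the TCR response list, 4 of 27 rose and 14 fell, among them Cd69 (-1.26) and Itm2a (-1.26), while Tnfrsf4 rose by 1.24. From CD4 SM to CD4 mature cells (12.5% of genes passed) Nr4a1 fell again (-0.74 ± 0.14 SE, edgeR adjusted p = 0.00072; lower in 5 of 6 mice), to 11.1 to 38.3 CPM (median 33.1). The mouse that was higher was OT-II replicate 1, where 1 mature cell held 61 of the 84 UMIs and the level of 38.0 CPM was 10.4 CPM without that cell. With at most 3 UMIs counted per cell the fall was kept (-0.88, edgeR adjusted p = 1.8e-05). Nr4a1 also fell in wild-type mice by 1.48 on the log2 scale. Nr4a3 did not pass in CD4-fated mice (-0.49 ± 0.29 SE, edgeR adjusted p = 0.32) and fell in wild-type mice (-1.68 ± 0.19 SE, edgeR adjusted p = 5.6e-07). Nr4a2 had too few counts to be tested. Here 15 of 27 TCR response genes fell and 1 rose, with Tnfrsf9 (-2.01), Itm2a (-1.61) and Gadd45b (-1.13) at the head.

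On the CD8 path, 4 CD8-fated mice (OT-I and MHCII-/-) had enough cells in CD4+CD8lo, DP3 and CD8 SM gates. From CD4+CD8lo to DP3 (14.5% of genes passed) Nr4a1 fell in 4 of 4 mice, from 61.1, 99.1, 99.1 and 92.2 CPM to 38.4, 91.2, 42.5 and 48.8 CPM in OT-I replicates 1 and 2 and MHCII-/- replicates 1 and 2 (log2 fold change -0.76 ± 0.12 SE, edgeR adjusted p = 0.00033). The fall was smaller and did not pass when at most 3 UMIs of the gene were counted per cell (-0.41, edgeR adjusted p = 0.11). Nr4a2 (-0.85 ± 0.40 SE, edgeR adjusted p = 0.19) and Nr4a3 (-0.62 ± 0.37 SE, edgeR adjusted p = 0.31) did not pass, Nr4a3 except at -1.67 (edgeR adjusted p = 0.018) without MHCII-/- replicate 2. Of the TCR response list, 4 of 27 rose and 7 fell: Pdcd1 (-2.22), Gadd45b (-1.53) and Bcl2l11 (-1.31).

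From DP3 to CD8 SM cells (7.3% of genes passed) Nr4a1 did not pass (-0.42 ± 0.17 SE, edgeR adjusted p = 0.14) although it was lower in 4 of 4 mice, and it passed with stricter gates (-0.69) and with at most 3 UMIs counted per cell (-0.75). Nr4a2 was higher (1.78 ± 0.36 SE, edgeR adjusted p = 0.00025), at 0, 3.49, 16.3 and 19.2 CPM against 0, 0, 4.11 and 6.41 CPM, but 1 cell held 19 of the 23 and 1 cell 21 of the 49 UMIs of the MHCII-/- mice, and with stricter gates the value was -0.01. Nr4a3 did not pass (0.26 ± 0.33 SE, edgeR adjusted p = 0.78). Of the TCR response list, 6 of 24 fell and 0 rose, led by Tnfrsf4 (-2.79), Itm2a (-1.26) and Egr1 (-1.09), an immediate-early transcription factor. From CD8 SM to CD8 mature cells (4.02% of genes passed) all 3 fell, each lower in 3 of 4 mice. Log2 fold changes were -1.50 ± 0.21 for Nr4a1, -1.99 ± 0.35 for Nr4a2 and -1.57 ± 0.38 for Nr4a3 (SE), with edgeR adjusted p of 9.6e-06, 0.00035 and 0.011. Nr4a1 went from 32.2, 24.4, 32.5 and 35.7 CPM to 8.42, 26.6, 8.35 and 10.7 CPM, with OT-I replicate 2 as the mouse that did not go down, and in wild-type mice fell by 2.07 on the log2 scale. The Nr4a2 and Nr4a3 calls were lost with DESeq2 and with at most 3 UMIs counted per cell, and that of Nr4a2 without MHCII-/- replicate 1 (-1.61, edgeR adjusted p = 0.077). Of the TCR response list, 8 of 27 fell and 0 rose.

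**Figure D3:**
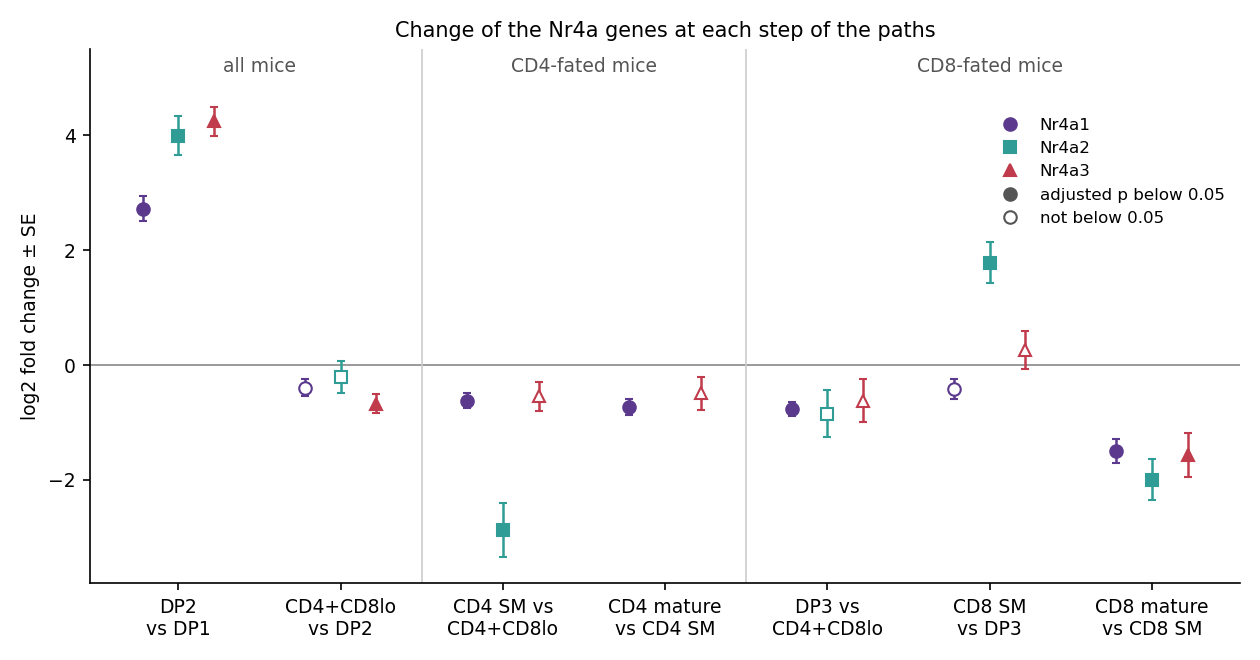
Log2 fold change ± SE (y axis, edgeR) of Nr4a1, Nr4a2 and Nr4a3 at each step of the paths (x axis), with filled symbols where the adjusted p was below 0.05, in all mice for the first steps and in CD4-fated or CD8-fated mice after. The points for DP2 against DP1 lie from 2.73 to 4.24 and, apart from Nr4a2 and Nr4a3 in CD8 SM against DP3, the later ones lie below 0.

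Whether the genes differed between the lineages was asked by setting CD4-fated against CD8-fated mice gate by gate, with family (AND and F5, OT, MHC) as a covariate. In DP1 cells (0.0402% of genes passed) Nr4a1 did not pass (log2 fold change -0.77 ± 0.44 SE, edgeR adjusted p = 1), at 2.05 to 35.7 CPM with a median of 9.81 CPM in CD4-fated and 15.03 to 33.4 CPM with a median of 18.1 CPM in CD8-fated mice. In DP2 cells (0.738% passed) Nr4a1 (0.04 ± 0.41 SE, edgeR adjusted p = 0.999) and Nr4a3 (1.37 ± 0.37 SE, edgeR adjusted p = 0.12) did not pass, Nr4a3 except without AND replicate 2 or OT-I replicate 2 (edgeR adjusted p of 0.048 and 0.0069). Genes of the TCR response list that passed there were Gadd45b (1.59 ± 0.23) and Tnfaip3 (1.04 ± 0.22), an NF-κB feedback gene, 2 of 23, both higher in CD4-fated mice. In CD4+CD8lo cells (0.649% passed; 6 CD4-fated and 4 CD8-fated mice) Nr4a1 was at 28.5 to 119 CPM with a median of 63.0 CPM and 61.1 to 99.1 CPM with a median of 95.6 CPM. F5 mice had too few cells in this gate, so that with family as a covariate the AND mice did not set the fold changes. These rest on the OT and MHC families, whereas the range and median of CD4-fated mice include the AND mice. None of the genes passed: log2 fold changes were 0.03 ± 0.23 for Nr4a1, 0.43 ± 0.41 for Nr4a2 and 0.05 ± 0.51 for Nr4a3 (SE), with edgeR adjusted p of at least 0.97, and each sign turned under at least 1 of the settings tried. Of the list, Cd5 (0.95 ± 0.17) passed, 1 of 27. With same-numbered mice of a family as a block, genes called went from 46 to 101 in DP2, from 58 to 193 in CD4+CD8lo and from 958 to 1611 in semimature cells. A lineage difference that depended on the family was tested as an interaction. In DP2 (0.104% of genes passed) Nr4a1 did not pass (edgeR F = 10.9, adjusted p = 0.0996) but did with stricter gates, which left the AND and F5 and the MHC families (F = 21.6, edgeR adjusted p = 0.0196). Nor did Nr4a3 pass in CD4+CD8lo cells (0.0787% passed; F = 21.8, edgeR adjusted p = 0.15).

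Nr4a1 was higher in CD4 than in CD8 semimature cells. CD4 SM cells of the 6 CD4-fated mice were at 25.7 to 71.1 CPM with a median of 44.4 CPM, and CD8 SM cells of the 4 CD8-fated mice (OT-I and MHCII-/-) at 32.2, 24.4, 32.5 and 35.7 CPM, so that the groups overlapped. F5 mice had too few CD8 SM cells (4 and 13). With family as a covariate, the AND mice therefore did not set the fold changes of SM cells, though they entered the estimate of spread. Nr4a1 differed with a log2 fold change of 0.76 ± 0.22 (SE; edgeR quasi-likelihood test, adjusted p = 0.04), where 10.1% of genes passed. This call was lost without AND replicate 1 or any of the 4 MHC-deficient mice (0.68 to 0.91 over all mice left out, edgeR adjusted p up to 0.21) and with DESeq2 (0.77, adjusted p = 0.086). Within the 5 wild-type mice, where both gates come from the same animal, CD4 SM was higher than CD8 SM in 5 of 5 (91.3, 84.8, 71.5, 119 and 148 against 29.9, 42.6, 69.1, 59.6 and 83.0 CPM in replicates 1 to 5). The log2 fold change there was 0.81 ± 0.13 (SE; edgeR adjusted p = 3.3e-06), a comparison chosen after seeing the data. In mature cells (16% of genes passed) Nr4a1 was at 11.1 to 38.3 CPM with a median of 33.1 CPM against 5.72 to 26.6 CPM with a median of 9.54 CPM, the former with the OT-II cell of 61 UMIs. It did not pass (1.08 ± 0.37 SE, edgeR adjusted p = 0.067; 0.60, adjusted p = 0.41 with at most 3 UMIs counted per cell), but did within wild-type mice (1.34 ± 0.22 SE, edgeR adjusted p = 8.4e-06; higher in 5 of 5) and without F5 replicate 1 or OT-I replicate 2. With same-numbered mice of a family as a block it passed as well (1.24 ± 0.33 SE, edgeR adjusted p = 0.02). Nr4a3 did not pass in semimature cells (0.25 ± 0.28 SE, edgeR adjusted p = 0.66) and was higher on the CD4 side in mature cells (1.76 ± 0.36 SE, edgeR adjusted p = 0.0053), at 0.449 to 12.7 CPM with a median of 6.54 CPM against 0 to 4.05 CPM with a median of 1.43 CPM. With at most 3 UMIs counted per cell the mature call was lost (1.06, edgeR adjusted p = 0.087). Within wild-type mice it passed in SM (0.98 ± 0.25 SE, edgeR adjusted p = 0.0025) and not in mature cells (0.70 ± 0.37 SE, edgeR adjusted p = 0.18). Nr4a2 was lower on the CD4 side in SM cells (-3.39 ± 0.44 SE, edgeR adjusted p = 0.00013), where the 2 cells of the MHCII-/- mice named above held 40 of the 73 UMIs on the CD8 side, and it could not be tested with at most 3 UMIs counted per cell. In SM cells 5 of 28 TCR response genes were higher and 3 lower on the CD4 side, with Tnfrsf4 (5.99 ± 0.28), Itm2a (2.20 ± 0.30) and Cd83 (-1.79 ± 0.48) at the head, and in mature cells 6 of 27 and 1, led by Tnfrsf4 (3.55 ± 0.40), Jun (1.75 ± 0.36) and Ikzf2 (-1.63 ± 0.27). Of the dissociation genes, which include Jun, 1 of 8 was higher and 2 lower in SM cells, with a median of 0.60 (all genes 0.01), and 4 of 8 were higher and 1 lower in mature cells, with a median of 0.52 (all genes 0.01). Their part in these results was not tested.

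**Figure D4:**
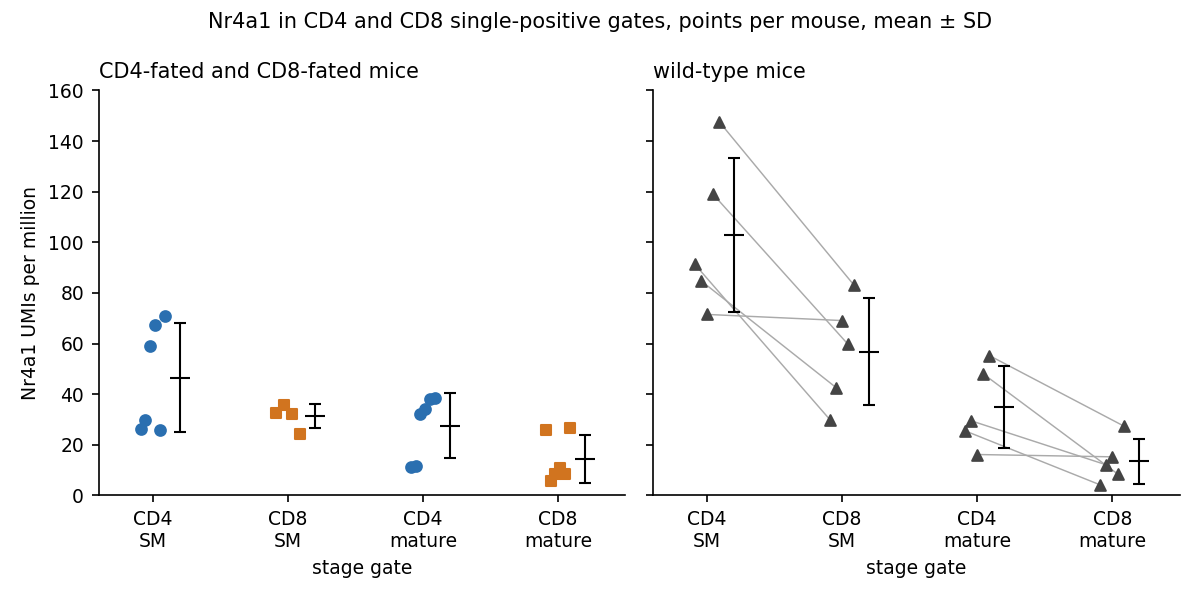
Nr4a1 CPM in CD4 and CD8 semimature (SM) and mature cells, 1 point per mouse with the mean ± SD beside it, for CD4-fated and CD8-fated mice (left) and, joined by lines, for the 5 wild-type mice (right). In each wild-type mouse the CD4 point lies above the CD8 point, by little in sorted replicate 3 (71.5 and 69.1 CPM in SM cells).

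All 3 genes were higher in cells high in Bcl2l11. Of DP2 and CD4+CD8lo cells, those with at least 3 Bcl2l11 UMIs were set against those with none, in the 11 mice with at least 20 cells on each side (26 to 145 and 192 to 1301 cells). Nr4a1 was at 143 to 824 CPM (median 501) in Bcl2l11-high and 23.5 to 93.3 CPM (median 65.7) in Bcl2l11-zero cells, higher in 11 of 11 mice, with a log2 fold change of 2.77 ± 0.11 (SE; edgeR quasi-likelihood test, adjusted p = 1.2e-28). Nr4a3 was at 57.5 to 427 CPM (median 165) against 6.10 to 18.8 CPM (median 11.1), also higher in 11 of 11, with a log2 fold change of 3.77 ± 0.15 (SE; edgeR quasi-likelihood test, adjusted p = 1.2e-28). For both genes the groups did not overlap. Nr4a2 was higher in 9 of 11 mice, at 0 to 241 CPM (median 30.5) against 0.988 to 10.4 CPM (median 2.73), with a log2 fold change of 3.08 ± 0.29 (SE; edgeR quasi-likelihood test, adjusted p = 1.3e-12). Its top value came from wild-type replicate 3, where 1 cell held 21 of the 22 UMIs and the level without that cell was 10.96 CPM. Of all genes 22.1% passed. The 3 calls were kept with DESeq2, with library totals as the scale, with each mouse left out in turn, with stricter gates, with a cut at 2 Bcl2l11 UMIs and with at most 3 UMIs of a gene counted per cell.

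Levels were graded with Bcl2l11. In wild-type mice Nr4a1 was at 67.2 ± 23.8, 276 ± 130.1 and 638 ± 136 CPM in cells with 0, 1 or 2, and 3 or more Bcl2l11 UMIs (SD, n = 5 in each), and Nr4a3 at 11.3 ± 4.73, 71.6 ± 55.8 and 254 ± 133 CPM. With each cell thinned to 1500 UMIs, a UMI of Nr4a1 was seen in 40.6 ± 6.10% of Bcl2l11-high and 5.38 ± 1.61% of Bcl2l11-zero cells, and of Nr4a3 in 22.5 ± 7.13% and 1.38 ± 0.582% (SD, n = 5). Unthinned medians were 49.2% and 7.60% for Nr4a1. Bcl2l11-high cells were deeper in 10 of 11 mice (medians of 1888 to 6939 against 1631 to 5995 UMIs per cell). Thinning set the Nr4a counts to equal depth, but the cells were split by Bcl2l11 at full depth, and shallower cells were left out (wild-type replicate 5 kept 29 of 39 and 301 of 487). The TCR response list moved in the same direction: 24 of 28 genes were higher and 4 lower, Bcl2l11 itself among the former. Apart from it, the largest were Gadd45b (5.00 ± 0.12), Tnfrsf9 (2.94 ± 0.14) and Nfkbid (2.64 ± 0.09), an inhibitor of NF-κB. Bcl2, whose anti-apoptotic product BIM binds, was lower (-0.86 ± 0.07 SE, edgeR adjusted p = 1.4e-15). Of the dissociation genes 6 of 9 were higher and 1 lower, with a median of 0.50, and summed they were higher in 11 of 11 mice (median 1370 against 1039 CPM). Quiescent double-positive genes were lower in 10 of 11 mice (median 30.5 against 106 CPM). The part of these in the result was not tested.

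**Figure D5:**
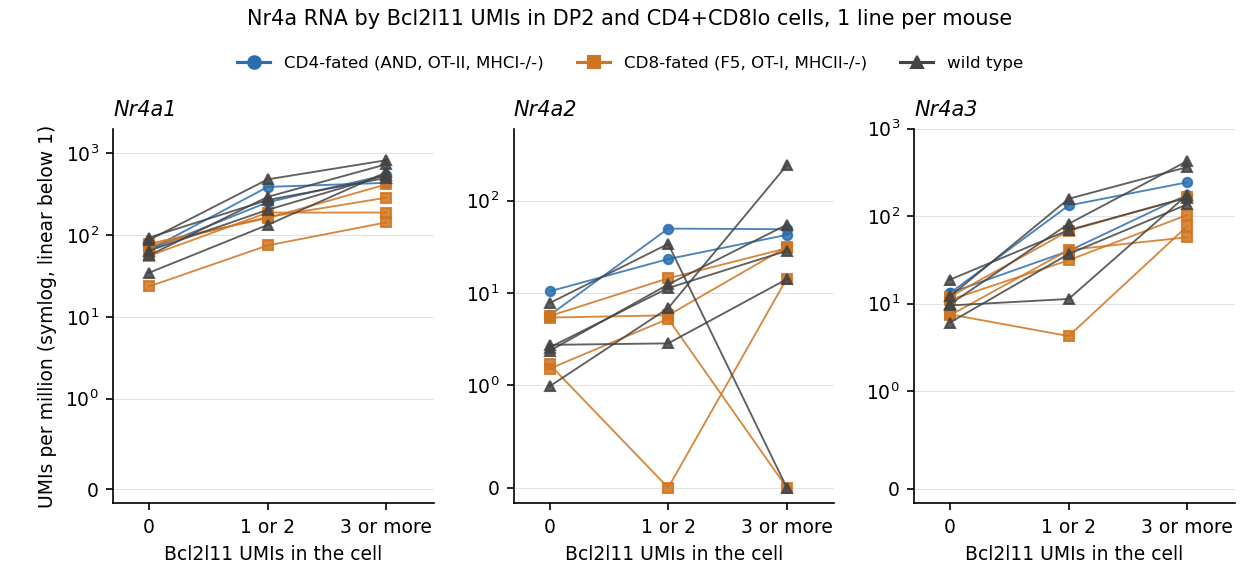
Nr4a1, Nr4a2 and Nr4a3 CPM (symmetric log axis, linear below 1) in DP2 and CD4+CD8lo cells with 0, 1 or 2, and 3 or more Bcl2l11 UMIs, 1 line per mouse for the 11 mice tested. Nr4a1 is higher at 3 or more than at 0 in every mouse (143 to 824 against 23.5 to 93.3 CPM), and Nr4a2 reaches 0 in some.

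Most cells with a UMI of Nr4a3 or Nr4a2 also had one of Nr4a1, but most cells with a UMI of Nr4a1 had none of the other genes. Counts per cell were low, so that a cell with 0 UMIs of a gene may still express it. Of 1426 DP2 cells of wild-type mice, 252 had a UMI of Nr4a1, 107 of Nr4a3 and 26 of Nr4a2. Of the 107 cells with Nr4a3, 82 also had Nr4a1, and of the 26 with Nr4a2, 20 did, with 14 cells that had all 3. Among CD4 SM cells of wild-type mice (2722 cells) these counts were 402, 156 and 21, with 112 of the 156 and 17 of the 21 also holding Nr4a1. DP2 and CD4+CD8lo cells with a UMI of Nr4a3 were set against those with none, in the 9 mice with enough cells, to ask which genes went with it. Nr4a1 was at 631 to 1264 CPM (median 859) against 44.5 to 123 CPM (median 74.8), with a log2 fold change of 3.46 ± 0.09 (SE; edgeR quasi-likelihood test, adjusted p = 2.4e-43). Nr4a2 was at 44.5 to 228 CPM (median 117) against 0.870 to 6.46 CPM (median 2.37), with a log2 fold change of 5.24 ± 0.23 (SE; edgeR quasi-likelihood test, adjusted p = 4.8e-30). Both were higher in 9 of 9 mice, where 24% of genes passed. Nr4a3-positive cells were deeper in 9 of 9 mice. Among TCR response genes, 26 of 29 were higher and 1 lower, with Gadd45b (4.14 ± 0.11), Fosb (3.15 ± 0.42) and Nfkbid (3.05 ± 0.08) at the head. Of the dissociation genes, which include Fosb, 6 of 9 were higher and 0 lower, with a median of 1.00 (all genes -0.04). All 12 genes of that list summed to 1058 to 1979 CPM (median 1782) in Nr4a3-positive and 782 to 1280 CPM (median 1066) in Nr4a3-negative cells of these mice, higher in 9 of 9. Quiescent double-positive genes were lower in 9 of 9 (median 27.9 against 127 CPM). Their part in the result was not tested.

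CD5 protein, which rises with the strength of TCR signaling and over development, was used to split DP2 cells of 14 mice into 3 equal parts within each lane. Nr4a3 was higher in the CD5-high than in the CD5-low part (0.98 ± 0.22 SE, edgeR adjusted p = 0.0035), at 0 to 139.6 CPM (median 32.6) against 0 to 83.7 CPM (median 12.7), in 7 mice higher, in 2 lower and in 5 at 0 on both sides. Nr4a1 did not pass (0.51 ± 0.18 SE, edgeR adjusted p = 0.076), with 7 mice higher, 6 lower and 1 at 0 on both sides, but passed without any low-count filter, with at most 3 UMIs counted per cell, and without F5 replicate 1, MHCI-/- replicate 2 or OT-II replicate 1 (0.56, 0.66 and 0.54, edgeR adjusted p of 0.049, 0.016 and 0.037). The CD5-high part was deeper in 7 of 14 mice. Nr4a2 did not pass (0.21 ± 0.46 SE, edgeR adjusted p = 0.89). Of all genes 7.08% passed. Among TCR response genes, 7 of 24 were higher and 0 lower, among them Pdcd1 (1.87 ± 0.23), Itm2a (1.31 ± 0.11) and Id3 (0.88 ± 0.09), a target of TCR signaling. Stage markers moved with the split too. In the CD5-high against the CD5-low part, quiescent double-positive genes had medians of 121 and 325 CPM (lower in 12 of 14 mice), CD8 single-positive genes (Cd8a, Cd8b1, Nkg7, Runx3 and Itgae) 876 and 2331 CPM (lower in 12), cycling genes 51.6 and 145 CPM (lower in 11) and double-negative genes 8.90 and 36.0 CPM (lower in 13). Their part in the result was not tested.

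None of the 3 genes passed between Foxp3-positive and Foxp3-negative cells. Foxp3-negative cells were CD4 single-positive cells with no Foxp3 UMI and with CD25 protein below its gate. CD4 single-positive cells with a Foxp3 UMI (29 to 77 per mouse, 6 mice) had the regulatory T cell markers Ctla4 and Il2ra summing to 301 to 414 CPM. In Foxp3-negative cells of the same mice the sum was 9.48 to 16.95 CPM. Foxp3, the third marker of that list, chose the cells. CD25 is the product of Il2ra, so that this difference was partly set by the choice of cells. Nr4a1 was at 50.7 and 36.8 CPM in Foxp3-positive cells of MHCI-/- mice and 86.0, 72.8, 54.5 and 15.9 CPM in those of wild-type replicates 1 to 4, and at 47.8, 53.9, 66.1, 64.8, 43.3 and 92.0 CPM in Foxp3-negative cells of the same mice. Of the 16 UMIs behind the 86.0 CPM, 1 cell held 11, and the level without that cell was 26.9 CPM. Nr4a1 was higher in 4 and lower in 2 mice, and did not pass (-0.18 ± 0.16 SE, edgeR adjusted p = 0.53). Without wild-type replicate 4 the value was 0.05. Nr4a2 (1.04 ± 0.59 SE, edgeR adjusted p = 0.26) and Nr4a3 (-0.63 ± 0.36 SE, edgeR adjusted p = 0.25; lower in 5 of 6 mice) did not pass either, while 16.7% of genes did. The precision is low: the Foxp3-positive cells held 93 Nr4a1, 11 Nr4a2 and 17 Nr4a3 UMIs in all, and they were less deep than the Foxp3-negative cells in 6 of 6 mice. Of the other marker lists, NKT and NK cell genes (Zbtb16, Klrb1c and Il2rb) summed to 74.4 to 167 CPM (median 92.4) in Foxp3-positive and 6.35 to 16.2 CPM (median 11.4) in Foxp3-negative cells of these mice. Double-negative genes, among them Il2ra, summed to 141 to 263 CPM (median 174) and 28.3 to 35.5 CPM (median 32.5), cycling genes to 5.39 to 128 CPM (median 21.4) and 74.8 to 369 CPM (median 219), and CD4 single-positive genes (Zbtb7b, Cd40lg and Cd4) to 145 to 223 CPM (median 193) and 320 to 387 CPM (median 356). Their part in the result was not tested. Other genes of the TCR response list were higher there, 11 of 28 with 4 lower, led by Cd83 (4.43 ± 0.37), Ikzf2 (3.02 ± 0.06) and Tnfrsf4 (2.49 ± 0.07). By CD25, the Foxp3-positive cells with it (4 mice) had Nr4a1 at 12.8 to 85.5 CPM (median 45.17) and those without it (6 mice) at 18.4 to 93.4 CPM (median 40.1).

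Other cell types were few, and their levels are given as values only. In the unsorted wild-type mice, double-negative cells (124 and 147) had Nr4a1 at 5.67 and 11.4 CPM. Cells with CD11c or CD172a (25 and 26 cells, markers of dendritic and myeloid cells) had it at 38.8 and 97.0 CPM, from 6 and 9 UMIs. Of such cells in AND replicate 1 (26) and OT-I replicate 1 (32), 0% had a UMI of Nr4a1. TCRγδ+ cells, of which only the OT-II mice had at least 20 (33 and 25), had Nr4a1 at 40.8 and 107 CPM, Nr4a2 at 31.3 and 9.69 CPM and Nr4a3 at 15.7 and 48.5 CPM.

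Across the 52 combinations of genotype group and gate with enough cells, the genes whose mean log2 CPM followed a member most closely were named, among 9699 genes. These are descriptions: points share mice, lanes and depth. Nr4a1 went with Nr4a3 (Pearson's r = 0.847), Nfkb1 (0.825, a subunit of NF-κB), Zfp36l1 (0.808, which binds AU-rich RNA), Bcl2l11 (0.772) and Cd69 (0.755). Nr4a3 went with Gadd45b (0.889), Nfkb1 (0.873), Lad1 (0.856), Nr4a1 (0.847) and Nfkb2 (0.834). Nr4a2 went with Rgs16 (0.764, a regulator of G protein signaling), Nr4a3 (0.755), Trav16n (0.696, a TCR α variable segment), Ccl4 (0.691, a chemokine) and Spry1 (0.678, an inhibitor of receptor signaling), and with Nr4a1 at 0.573.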

How the data were processed

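The authors aligned reads to mm10 with STAR in Cell Ranger 3.1.0 and deposited raw UMI counts of RNA and antibodies per barcode. These counts were used as deposited. Cells with over 15% mitochondrial UMIs, under 200 genes, antibody UMIs outside 1000 to 10000 or fewer than 70 antibodies detected were left out, and then doublets, called at 0.8% per 1000 barcodes (2906 of 72054 cells, 4.03%). Gates used antibody counts per 10000 in a cell. Their thresholds were set on antibody histograms and RNA stage markers, without reading the Nr4a counts. Cells with a Foxp3 UMI were kept out of the CD4 single-positive gates except where named and in the shares of all cells and UMIs.

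UMIs were summed per mouse and gate (at least 20 cells) and tested with edgeR 4.0.16 (quasi-likelihood, TMM, filterByExpr, R 4.3.3), with Benjamini-Hochberg adjustment over all genes tested and a threshold of 0.05. The SE of a log2 fold change is its size over the square root of F. Stage comparisons had mouse as a block, as each mouse gave both gates, and lineage comparisons had family as a covariate. By the labels, replicate numbers also marked the experiment for AND and F5 mice, and were only numbers within 1 experiment for the other families. Mice are separate animals and cells were not used as replicates. The test was checked on simulated counts. Alternatives were DESeq2 1.42.0, library totals as the scale, no low-count filter, stricter gates, doublets kept, the replicate block added or removed, no covariate, other UMI cuts and each mouse left out. Wild-type mice in place of lineage-restricted mice, the CD4 against CD8 gate within wild-type mice, TCR-transgenic against polyclonal mice, and at most 3 member UMIs per cell were chosen after seeing the data. The members, gene lists and comparisons were chosen with earlier results of these data known. Of the lists, the 3 called TCR response genes with the largest change are named, and for each member the 5 genes most alike. Promoters are from RefSeq on GRCm38.p6 (3 of 3 genes matched). Some marker results are not reported here.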

Additional observations from a re-analysis of the deposited data

Results flagged for a closer look

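In 57 groups of 4 to 10 mice, chance alone would set about 1 in 20 apart by the gap test used here (Dixon's critical value at 95%), and 4 values stood apart. In DP1 cells of CD8-fated mice, F5 replicate 1 had Nr4a1 at 33.4 CPM (309 UMIs), with the next mouse at 18.2 CPM. In DP2 cells of wild-type mice, sorted replicate 3 had Nr4a2 at 41.1 CPM, with the next at 15.6 CPM, and 21 of its 23 UMIs came from 1 cell. In DP3 cells of wild-type mice, unsorted replicate 5 had Nr4a2 at 7.32 CPM, which is 1 UMI, with the next at 1.60 CPM. In CD8 mature cells of CD8-fated mice, MHCII-/- replicate 2 had Nr4a2 at 5.33 CPM (32 UMIs), with the next at 2.02 CPM.

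The change of Nr4a1 from DP1 to DP2 differed between TCR-transgenic and polyclonal mice, by -2.06 on the log2 scale (transgenic minus polyclonal, 17 mice). This difference was noticed in the same data before it was tested.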

How the results depend on the processing

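The rise of all 3 genes from DP1 to DP2, and their higher levels in Bcl2l11-high cells and (Nr4a1 and Nr4a2) in Nr4a3-positive cells, kept direction and call under each alternative run. Results after DP2 were less stable, and the cause was not tested. DESeq2 gave 31 of 40 member values the same direction and call, and no adjusted p for Nr4a2 in CD8 SM against DP3.

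In CD4+CD8lo against DP2, Nr4a1 (main value not called) was 0.069 with DESeq2 and called without a low-count filter (-0.37), with library totals (-0.46) and with stricter gates (-0.79), and Nr4a3 was not called with DESeq2 (-0.48) or without the replicate block (-0.67). In DP3 against CD4+CD8lo, Nr4a1 was lost with at most 3 UMIs per cell (-0.41) or without the replicate block (-0.72). In CD4 SM against CD4+CD8lo, Nr4a1 was 0.052 in wild-type mice, -0.56 with DESeq2 and -0.55 without the replicate block, Nr4a2 was -0.37 in wild-type mice, none of them called, and Nr4a3 was called with library totals (-0.70). In CD4 mature against CD4 SM, Nr4a1 was lost without the replicate block (-0.68) and Nr4a3 was called in wild-type mice (-1.68), with stricter gates (-0.92) and with at most 3 UMIs per cell (-0.82). In CD8 SM against DP3, Nr4a1 was called with stricter gates (-0.69) and at most 3 UMIs per cell (-0.75), Nr4a2 turned to -0.0081 with stricter gates, and Nr4a3 to -0.33 in wild-type mice. In CD8 mature against CD8 SM, Nr4a1 was lost without the replicate block (-1.29), Nr4a2 with DESeq2 (-1.92), stricter gates (-0.83) and at most 3 UMIs per cell (-1.27), and Nr4a3 with DESeq2 (-1.39) and at most 3 UMIs per cell (-1.05). Between CD5-high and CD5-low cells Nr4a1 was called without a filter (0.51) and with at most 3 UMIs per cell (0.55).

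Between CD4-fated and CD8-fated mice, Nr4a1 in DP1 was called without a filter (-0.78). In DP2, Nr4a1 was -0.68 with DESeq2, and Nr4a3 was called without a filter (1.35) and with stricter gates (1.44). In CD4+CD8lo cells Nr4a1 turned with DESeq2 (-0.016), no filter (-0.0015), stricter gates (-0.034), doublets kept (-0.062) and no family covariate (-0.24), Nr4a2 with stricter gates (-0.13) and at most 3 UMIs per cell (-0.062), and Nr4a3 with DESeq2 (-0.63), stricter gates (-0.0013) and no family covariate (-0.58). In semimature cells Nr4a1 was lost with DESeq2 (0.77) and without the family covariate (0.46), and Nr4a3 was called within wild-type mice (0.98) and turned without the covariate (-0.24). In mature cells Nr4a1 was called within wild-type mice (1.34) and without a filter (1.06), and Nr4a3 was lost within wild-type mice (0.70) and with at most 3 UMIs per cell (1.06). The interaction of lineage and family in DP2 was called for Nr4a1 with stricter gates (F = 21.6). In CD4+CD8lo cells of transgenic against polyclonal mice, Nr4a1 was called with DESeq2 (-0.94) and library totals (-1.05).

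With each mouse left out in turn, 336 of 371 member values kept direction and call. The others lay in these ranges: in CD4+CD8lo against DP2, Nr4a1 -0.48 to -0.30 and Nr4a2 -0.35 to 0.070; in DP3, Nr4a3 -1.67 to -0.26; in CD4 SM, Nr4a3 -0.75 to -0.38; in CD8 mature, Nr4a2 -2.06 to -1.61; in Foxp3-positive cells, Nr4a1 -0.29 to 0.052; in CD5-high cells, Nr4a1 0.33 to 0.66; between lineages, Nr4a1 -0.31 to 0.52 and Nr4a3 0.97 to 1.503 in DP2, Nr4a1 -0.088 to 0.23 and Nr4a3 -0.52 to 0.54 in CD4+CD8lo, and Nr4a1 0.68 to 0.91 in semimature and 0.87 to 1.46 in mature cells.

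Pairing by replicate number was mixed. Deviations of same-numbered mice correlated at 0.896, 0.325 and 0.704 in DP1, DP2 and CD4+CD8lo cells of the OT family, at 0.594, -0.017 and -0.01 in the MHC family, and at -0.082 and 0.199 in DP1 and DP2 of AND and F5 mice. With the replicate block in the lineage comparisons, Nr4a1 in mature cells was called (1.24) and the other 10 member values kept their call. Counts of genes called also moved by over 1.5 times without a filter in DP1 (4 to 136), DP2 (46 to 280) and CD4+CD8lo (58 to 204) lineage comparisons. With DESeq2 they went from 4 to 9, 46 to 112 and 58 to 96 there, from 1313 to 495 in DP3, 1549 to 868 in CD4 SM, 1211 to 646 in CD4 mature, 594 to 124 in CD8 SM, 383 to 114 in CD8 mature, 1717 to 1111 in Foxp3-positive and 457 to 275 in CD5-high cells. Without mouse as a block the stage steps after DP2 had 0 to 541 genes called, and DP2 against DP1 had 2737 in place of 5162. Stricter gates gave 1253 in place of 1902 in Bcl2l11-high, 1339 in place of 2072 in Nr4a3-positive, 250 in place of 457 in CD5-high and 113 in place of 46 in the DP2 lineage comparison. With 1 mouse left out, genes called ranged from 367 to 1814 in DP3, 881 to 1562 in CD4 SM, 663 to 1201 in CD4 mature, 181 to 640 in CD8 SM and 146 to 405 in CD8 mature cells, and between lineages from 2 to 6 in DP1, 19 to 78 in DP2, 16 to 126 in CD4+CD8lo and 308 to 1092 in semimature cells. Falls of over 1.5 times came in the stage steps without either MHCI-/- or either MHCII-/- mouse and between lineages without any of these 4, except in DP1, where F5 replicate 2 gave the lowest count, and in CD4+CD8lo also without AND replicate 1 (35) or 2 (34). Rises of over 1.5 times came without AND replicate 2 (78) or OT-I replicate 2 (76) in DP2 and without OT-I replicates 1 (114) or 2 (126) in CD4+CD8lo cells. Nr4a2 had too few counts to be tested in several gates.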

Other observations

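CD4 SM cells of OT-I mice, whose TCR is restricted by MHC class I, belong to no comparison above. They were few (72 and 74 cells) and had Nr4a1 at 293 and 131 CPM and Nr4a3 at 97.6 and 34.0 CPM in replicates 1 and 2. The other class I-restricted mouse with enough of them, MHCII-/- replicate 2 (20 cells), had Nr4a1 at 13.4 and Nr4a3 at 0 CPM. The dissociation genes summed in CD4 SM cells of these 3 mice to 719, 996 and 1575 CPM in order of level, against 627 to 1044 CPM in wild-type mice, and their part was not tested. CD8 SM cells of the OT-I mice had Nr4a1 at 32.2 and 24.4 CPM.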
